A study of Mus musculus with 9 samples.

Results

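Interferon-stimulated genes are the genes that cells switch on when interferon, the antiviral cytokine, reaches its receptors. A list of 34 of them was described in the prefrontal cortex (PFC). They were chosen by name, as known targets of interferon, with earlier results of these data known. Gene identifiers of the count table were matched to symbols with the mouse GENCODE annotation (GRCm38), and 34 of 34 were found among 56246 genes. Of these, 33 had enough reads to be tested among 17948 genes, and Oas1b, with 1 to 7 reads in a library, did not.

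RNA from the PFC of male mice, by the study's methods aged 8 to 12 weeks and on a C57BL/6 background, was sequenced in 9 libraries, 3 in each of 3 groups. Rag1-/- + WT EVs are mice without the V(D)J recombinase subunit Rag1, and so without mature T and B cells, that received extracellular vesicles from the serum of wild-type mice by intravenous injection. Rag1-/- + vehicle are mice of the same genotype given medium. WT mice carry intact Rag1, and their labels list no treatment, although their titles bear the mark of medium that the vehicle libraries bear and the study's supplement describes them as given medium. The Rag1 deletion is present in every cell, all brains were perfused with buffer before dissection, and the EVs came from donors other than the mice measured. EV replicates are numbered 2, 3 and 5, vehicle replicates 1, 2 and 3, and WT replicates 1, 3 and 6. The labels do not say what a library was made from, but the study's legend counts 3 mice in each group, as many as its libraries, and p-values measure the spread between these libraries. Because the tissue was sequenced in bulk, fewer cells of a type and less RNA per cell cannot be told apart.

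Type I interferons bind a receptor whose kinases phosphorylate STAT2. With IRF9 it forms part of ISGF3, the complex that binds the interferon-stimulated response element (ISRE) in promoters. Interferon gamma acts at a different element, the gamma-activated site (GAS), and induces GTPases of the GBP and IRG families in particular. In the brain microglia, astrocytes, endothelial cells and neurons can all respond to interferon, and a low level of such transcripts is present without infection.

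The promoters of members carry these elements, and a few are printed to show what the list has in common at the level of sequence. RefSeq promoters on GRCm38.p6, each from 250 bases before to 50 after the start of a gene, were found for 27 of the 34 members. The ISRE was searched as GAAANNGAAA and the GAS as TTCNNNGAA, on both strands, and matches of the 2 motifs can overlap. An ISRE match was present in 17 members, 63.0% of the 27, against 3.99% of 27025 genes with a RefSeq promoter. A GAS match was present in 9 members (33.3%), against 9.55% of all genes. The windows below read 5′ to 3′ on the strand of the gene, with the match in capitals, and positions count from 0 at the start base. On the opposite strand the ISRE reads TTTCNNTTTC.
Stat2, chr10:128270266-128270295, plus strand, match at -222 to -213: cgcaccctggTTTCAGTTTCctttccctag
Isg15, chr4:156200871-156200900, minus strand, match at -72 to -63: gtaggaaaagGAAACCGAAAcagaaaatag
Ifit3, chr19:34583397-34583426, plus strand, match at -122 to -113: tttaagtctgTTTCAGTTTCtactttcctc
Ifit3b, chr19:34607793-34607822, plus strand, match at -154 to -145: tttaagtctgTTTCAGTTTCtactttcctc
Gbp7, chr3:142530273-142530302, plus strand, match at -53 to -44: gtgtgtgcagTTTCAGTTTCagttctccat
Ifitm3, chr7:141010706-141010735, minus strand, match at 19 to 28: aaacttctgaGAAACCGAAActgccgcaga
Irgm1, chr11:48871425-48871454, minus strand, match at -24 to -15: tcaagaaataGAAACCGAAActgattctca
Irf1, GAS, chr11:53769914-53769943, plus strand, match at -90 to -82: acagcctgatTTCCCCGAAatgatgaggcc
Ifit3 and Ifit3b, neighbouring copies on chromosome 19, had the same 30 bases. Reads from stretches that both transcripts share may be missing from the counts, which needed an alignment quality of at least 10. Neither set of letters was found in the windows of Irf7, Irf9, Oasl2, Trim25, Ifi44, Xaf1 and Samd9l, which says only that these letters are not there. A match is a description of the sequence and not a binding site.

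Reads assigned to genes numbered 32.0 to 41.2 M per library. Reads outside exons are given as a share of all reads outside exons, ambiguous between genes or assigned to a gene. This share was 9.06% ± 1.88 in Rag1-/- + WT EVs libraries, 6.74% ± 0.183 in Rag1-/- + vehicle libraries and 16.4% ± 11.99 in WT libraries (SD, n = 3 each). WT replicate 6 stood apart at 30.1%. The exact permutation test, 2-sided, gave p = 0.1 for vehicle against WT and for EVs against vehicle, the smallest it can give, and p = 0.5 for EVs against WT. Rag1 itself, in CPM, the reads per M reads in tested genes after scaling, had 6.80, 7.32 and 6.26 in the EV libraries, 7.82, 7.04 and 6.85 in the vehicle libraries and 1.09, 0.842 and 0.232 in the WT libraries. More Rag1 reads were therefore counted in the libraries labelled Rag1-/- than in those labelled WT. The count covers all exons of the gene and does not show which part of it the reads came from, so genotypes are given as labelled. Markers of excitatory neurons, the main neurons of cortex, summed to 5637 to 7703 CPM in the 9 libraries.

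The interferon-stimulated genes were expressed at low to middling levels. By mean CPM per kb of exon, the scale on which genes can be compared, the members lay between percentiles 3.01 and 74.4 of all tested genes, with their median at percentile 32.0. Levels in CPM per kb were highest for Ifi27 (8.09), a mitochondrial membrane protein, and Ifitm3 (5.84), which blocks virus entry at endosomes. Ifit3 (3.42), Ifit2 (2.74) and Stat2 (2.51) came next. Over the 9 libraries the range of Ifitm3 (2.35 to 8.23) overlapped those of Ifi27 (6.42 to 11.07) and Ifit3 (2.49 to 4.88). The ranges of Ifit3, Ifit2 and Stat2 also overlapped. Within libraries the order held more often than these ranges show, since Ifi27 lay above Ifitm3 in each of the 9. Ifitm3 fell below Ifit3 only in WT replicate 6 (2.35 and 3.30). Ifit3 fell below Ifit2 only in vehicle replicate 3 (2.71 and 3.12). Ifit2 and Stat2 changed order between libraries. Ifi44 (0.0942) and Oas1b (0.0584) were lowest, with ranges that overlapped each other. On the CPM scale, which is not corrected for length, 7 members averaged under 1 CPM, 18 averaged 1 to 5 CPM and 9 averaged 5 CPM or more. No member was at 0 reads in any library.

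**Figure D1:**
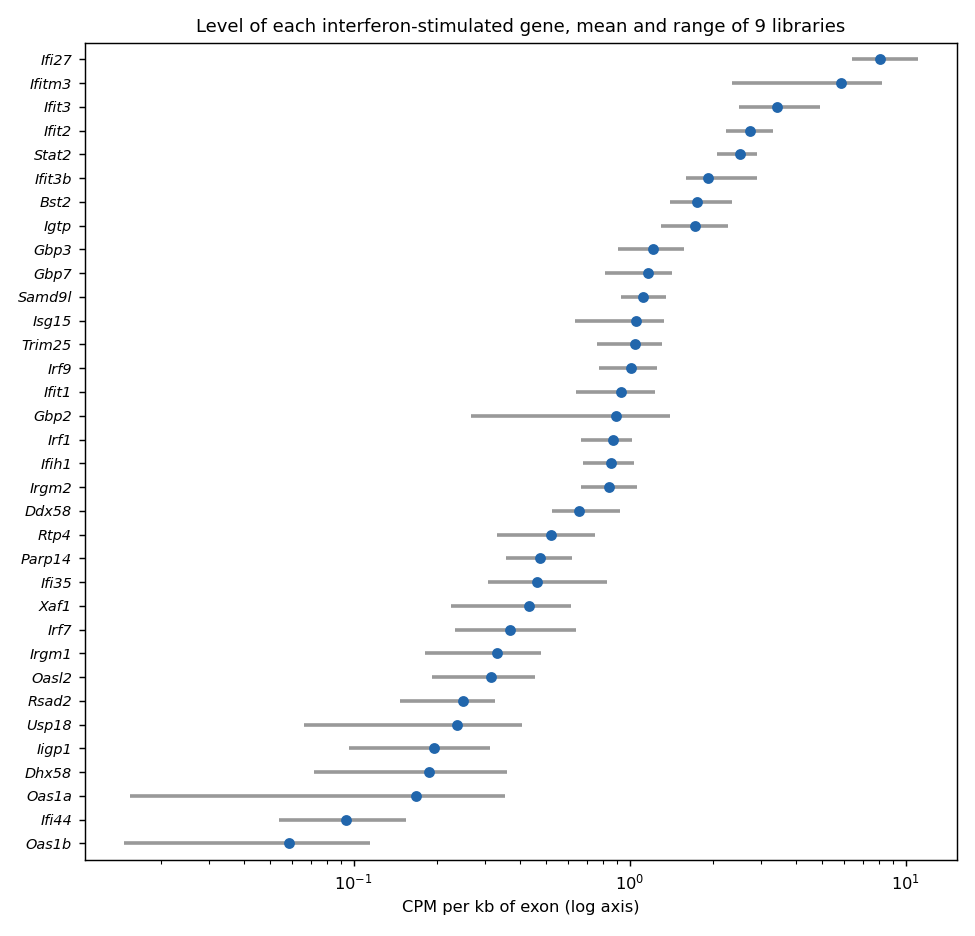
Mean level (points) and range over 9 libraries (bars) of the 34 interferon-stimulated genes, in CPM per kb of exon on a log axis. Ifi27 is at the top with a mean of 8.09 and Oas1b at the bottom with 0.0584, and the bar of Oas1a is long because 1 library held a single read.

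Rag1-/- + vehicle against WT asks what the lack of Rag1 does to these genes. Stat2, the signal transducer that type I interferon phosphorylates, was the only member to pass the test and was 1.31-fold higher in vehicle libraries (edgeR quasi-likelihood, adjusted p = 0.0266). No other transcript of the list passed in either direction, so 1 of 33 tested members was called, where 16% of all tested genes were called (6.28% higher and 9.71% lower). The median SE of the log2 fold change was 0.251 for the members and 0.1545 for all tested genes, and nearly the same in the other comparisons. Changes of the members were thus measured less closely than those of most genes. DESeq2 called 2, Stat2 and Gbp7, and limma-voom 1. Of all 17948 tested genes DESeq2 called 2138 higher and 2319 lower, and limma-voom 815 and 793. At an unadjusted p under 0.05, 1 member was higher (16% of all genes) and 4 were lower (20% of all genes), namely Gbp7, Ifi44, Irf9 and Ddx58. The vehicle and WT libraries did not overlap for 2 members that were above WT (18.3% of all genes), Stat2 and Rtp4, and for 5 below WT (19.8% of all genes), Irf9, Ddx58, Oasl2, Gbp7 and Ifi44. The fold change was above 1 for 12 of 33 members (36.4%, against 47.3% of all tested genes). The median log2 fold change of the list was -0.14, against -0.03 for all tested genes, and it came to 0.03 with offsets for GC content and gene length and to 0.04 without WT replicate 3. For 22 of 33 members the 95% interval of the change lay within 2-fold either way, and for 7 within 1.5-fold.

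Rag1-/- + WT EVs against Rag1-/- + vehicle asks what the vesicles change. The fitted folds of most members were above 1, with Oasl2, Irf7 and Usp18 at 1.86, 1.93 and 2.21, but the libraries of most members overlapped and no member passed the test. Of all tested genes 3.42% passed (2.17% higher and 1.24% lower). With edgeR 0 of 33 members were called, with 4 higher and 0 lower at an unadjusted p under 0.05 (12.3% and 10.7% of all genes), namely Oasl2, Irf7, Ifit3 and Ifi27. DESeq2 called 2, Irf7 and Oasl2, and limma-voom 0. Of all 17948 tested genes DESeq2 called 962 higher and 1207 lower, and limma-voom 262 and 153. The fold change was above 1 for 28 of 33 members (84.8%, against 55.0% of all tested genes), and the median log2 fold change was 0.33, against 0.04 for all tested genes. For 11 members every EV library lay above every vehicle library (20.1% of all genes), and for 0 members below (16.8% of all genes). These 11 were Irf1, Irf7, Usp18, Ifit3, Dhx58, Oasl2, Ifitm3, Gbp2, Ifi35, Ifi44 and Samd9l. The nearest EV and vehicle libraries were almost level for Irf1 (3.62 and 3.61 CPM), Dhx58 (0.643 and 0.606 CPM) and Ifi44 (0.469 and 0.452 CPM). The upper bound of the 95% interval was under 2-fold for 21 of 33 members and under 1.5-fold for 5, so an increase of 1.5-fold remained within the interval of most members.

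Rag1-/- + WT EVs against WT asks how far the treated mice stand from wild type. Stat2, Irf7, Ifit3, Gbp2 and Ifi35 had all 3 EV libraries above all 3 WT libraries, and Rsad2 had them all below. These are 5 members above (8.72% of all genes) and 1 below (7.73% of all genes). With edgeR 0 members were called, where 0.0446% of all tested genes were (0.039% higher and 0.00557% lower). At an unadjusted p under 0.05, 5 members were higher (8.34% of all genes) and 0 were lower (8.07%). DESeq2 called 1, Stat2, at an adjusted p of 0.04998, and limma-voom 0. Of all 17948 tested genes DESeq2 called 265 higher and 132 lower, and limma-voom 5 and 1. The fold change was above 1 for 23 of 33 members (69.7%, against 48.0% of all genes), with a median log2 fold change of 0.20, against -0.01 for all genes. Each group serves in 2 of the 3 comparisons, so these are not independent of each other.

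**Figure D2:**
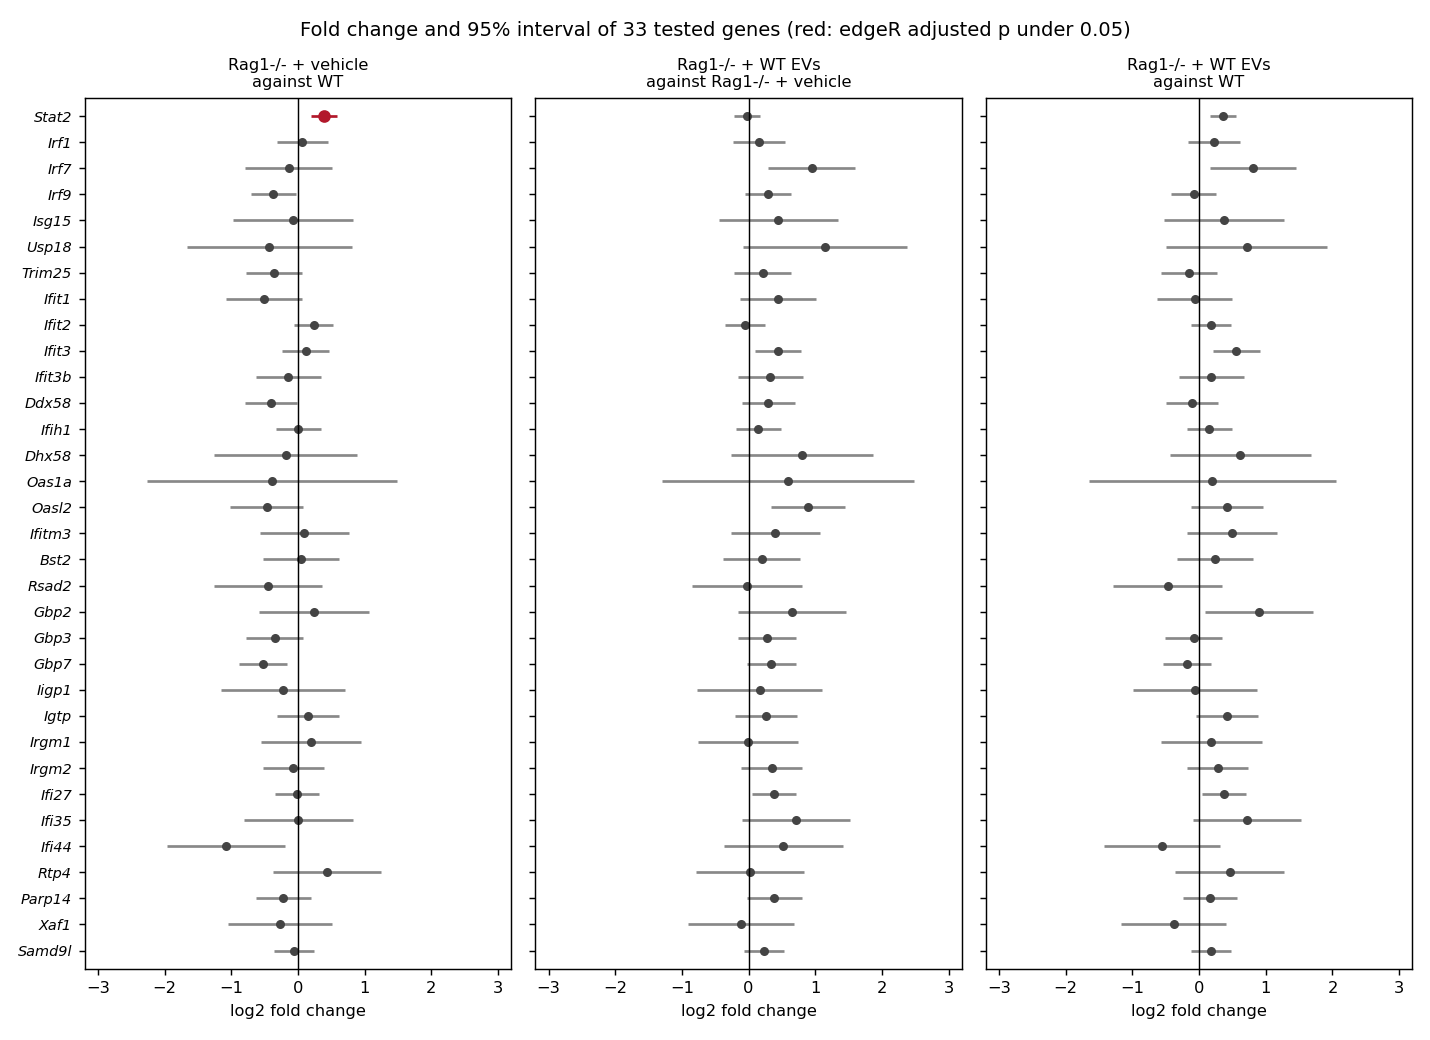
Log2 fold change (points) and 95% interval (lines) from edgeR for the 33 tested interferon-stimulated genes, with vehicle over WT in the left panel, EVs over vehicle in the middle panel and EVs over WT in the right panel. The vertical line marks no change, and only Stat2 in the left panel (0.39) has an adjusted p under 0.05 and is drawn in red. In the middle panel 28 of 33 points lie right of the line.

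Among the signal transducers and transcription factors of the list, Stat2 differed most clearly from WT. Stat2 (ENSMUSG00000040033, chr10:128270559-128292849, 19 exon blocks) had 15.98, 15.92 and 15.98 CPM in EV replicates 2, 3 and 5 and 17.15, 16.64 and 15 CPM in vehicle replicates 1, 2 and 3, against 12.51, 12.26 and 12.48 CPM in WT replicates 1, 3 and 6. All 6 Rag1-/- libraries thus lay above all 3 WT libraries, and the EV and vehicle libraries overlapped. For vehicle against WT the log2 fold change was 0.39 (SE 0.0894), a fold of 1.31 with a 95% interval of 1.14 to 1.5. The difference between EV and vehicle libraries was -0.03 on the log2 scale (95% interval -0.22 to 0.17, adjusted p = 0.882), and that between EV and WT libraries was 0.36 (SE 0.0898, adjusted p = 0.172). The Stat2 call did not hold without vehicle replicate 1 (adjusted p = 0.0946), vehicle replicate 2 (0.112), vehicle replicate 3 (0.0817) or WT replicate 1 (0.0526). Over all tested genes these fits called 3, 0, 0 and 1 genes higher, in the same order, and 0 lower in each. The loss of the call was therefore not particular to Stat2. The Stat2 call held in 11 of 19 alternatives, with adjusted p between 0.00242 and 0.131.

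Irf7, the factor that amplifies the interferon response, had 2.05, 1.56 and 2.41 CPM in EV libraries and 1.16, 0.877 and 1.08 CPM in vehicle libraries, against 1.09, 1.39 and 0.952 CPM in WT libraries. Every EV library lay above every other library, while vehicle and WT libraries overlapped. The fold was 1.93 for EVs against vehicle (95% interval 1.23 to 3.03, adjusted p = 0.0917) and 1.75 for EVs against WT (1.12 to 2.75, adjusted p = 0.244). Neither passed with edgeR on all libraries, and the first passed in 5 of 19 alternatives. In GENCODE M21 the exons of Irf7 merge into 1 block of 3776 bases that covers the whole gene. Reads from its introns would then be counted with the gene, and their part in these values was not tested.

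Irf9, the DNA-binding part of ISGF3, had 5.54, 4.71 and 6.78 CPM in EV libraries and 4.18, 5.18 and 4.57 CPM in vehicle libraries, against 5.95, 5.71 and 6.38 CPM in WT libraries. The vehicle libraries were all below the WT libraries, and the EV libraries overlapped both. For vehicle against WT the log2 fold change of Irf9 was -0.37 (SE 0.155, adjusted p = 0.1104), opposite in sign to that of Stat2, its partner in the complex. Irf1, a factor that interferon gamma induces, had log2 fold changes of 0.07, 0.15 and 0.22 in the comparisons of vehicle with WT, EVs with vehicle and EVs with WT, none of which passed.

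The ISG15 system attaches a ubiquitin-like protein to others and removes it again. Isg15, the modifier itself, had 0.850, 1.01 and 1.01 CPM in EV libraries and 0.991, 0.478 and 0.636 CPM in vehicle libraries, against 0.913, 0.816 and 0.489 CPM in WT libraries. Groups overlapped in all 3 comparisons, with 18 to 36 reads of Isg15 in a library. The fold for EVs against vehicle was 1.36, with an interval of 0.734 to 2.53 that includes no change and a 2-fold change. Usp18, which removes ISG15 and dampens the receptor, averaged 0.968 ± 0.190 CPM in EV libraries and 0.434 ± 0.0754 CPM in vehicle libraries (SD, n = 3 each), and these did not overlap. Its fold of 2.21, the largest of the list for EVs against vehicle, had an interval of 0.943 to 5.20 (adjusted p = 0.249) and rested on 14 to 35 reads in a library. Trim25, the ligase that activates the sensor RIG-I, had log2 fold changes of -0.36, 0.21 and -0.15 in the 3 comparisons and overlapped in each.

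IFIT proteins bind viral RNA that lacks the host cap structure. Ifit3 (ENSMUSG00000074896) had 6.77, 6.98 and 8.51 CPM in EV libraries and 6.28, 5.34 and 4.73 CPM in vehicle libraries, against 4.98, 4.34 and 5.76 CPM in WT libraries. The EV libraries of Ifit3 lay above all vehicle and WT libraries, and the vehicle and WT libraries overlapped. The log2 fold change was 0.45 (SE 0.158, adjusted p = 0.126) for EVs against vehicle and 0.56 (SE 0.159, adjusted p = 0.201) for EVs against WT, and neither passed. Its copy Ifit3b had values that overlapped in every comparison, with a log2 fold change of 0.33 for EVs against vehicle. Ifit1 had -0.51 for vehicle against WT and 0.45 for EVs against vehicle, and Ifit2, the most abundant of the 4 by CPM, had 0.23 and -0.06. Groups of Ifit1 and Ifit2 overlapped throughout.

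The cytosolic RNA sensors are Ddx58 (RIG-I), Ifih1 (MDA5) and Dhx58 (LGP2). Ddx58 averaged 3.91 ± 0.203 CPM in vehicle libraries and 5.19 ± 1.12 CPM in WT libraries (SD, n = 3 each), without overlap, at an adjusted p of 0.122. Ifih1 had a log2 fold change of 0.01 for vehicle against WT, with an interval of -0.33 to 0.35, and 0.15 for EVs against vehicle. Dhx58 averaged 0.831 ± 0.298 CPM in EV libraries and 0.475 ± 0.208 CPM in vehicle libraries, without overlap, at an adjusted p of 0.344. The nearest Dhx58 libraries were almost level, at 0.643 CPM (21 reads) in EV replicate 3 and 0.606 CPM (22 reads) in vehicle replicate 1. The interval of this change of Dhx58 spanned 0.836-fold to 3.65-fold.

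Enzymes of the OAS family make the second messenger that activates RNase L. Oasl2 had 2.20, 2.91 and 2.81 CPM in EV libraries and 1.62, 1.22 and 1.41 CPM in vehicle libraries, against 2.47, 1.63 and 1.80 CPM in WT libraries. All EV libraries were above all vehicle libraries and all vehicle libraries were below all WT libraries, though the vehicle and WT libraries nearest each other were almost level. For EVs against vehicle the fold was 1.86 (95% interval 1.27 to 2.72) at an adjusted p of 0.0699, the smallest of the list in this comparison, and it passed in 6 of 19 alternatives. For vehicle against WT the fold was 0.723 (0.493 to 1.06, adjusted p = 0.200). Oas1a had 1 to 26 reads in a library, and intervals of 0.207-fold to 2.80-fold for vehicle against WT and 0.408-fold to 5.56-fold for EVs against vehicle. The untested Oas1b, annotated as a polymorphic pseudogene, had 4, 6 and 7 reads in EV libraries and 3, 3 and 5 in vehicle libraries, against 1, 4 and 4 in WT libraries. For Oas1a and Oas1b, reads from stretches shared with related copies may be missing, because counting needed an alignment quality of at least 10.

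Of the membrane-associated restriction factors, Ifitm3 had 4.25, 4.62 and 5.58 CPM in EV libraries and 3.88, 3.27 and 3.79 CPM in vehicle libraries, against 4.47, 4.18 and 1.60 CPM in WT libraries. The EV libraries lay above the vehicle libraries (log2 fold change 0.40, SE 0.304, adjusted p = 0.457). WT replicate 6, with the large share of reads outside exons, was the lowest library of all for Ifitm3. Without it the log2 fold change of vehicle against WT was -0.25, and with it 0.10. Bst2, which tethers budding virions to the cell, overlapped in all comparisons, with log2 fold changes of 0.05 to 0.24. Rsad2 (viperin), which makes a chain-terminating nucleotide, averaged 0.956 ± 0.245 CPM in EV libraries, 0.971 ± 0.393 CPM in vehicle libraries and 1.32 ± 0.0804 CPM in WT libraries (SD, n = 3 each).

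Guanylate-binding proteins coat and disrupt the vacuoles of intracellular microbes. Gbp7 (ENSMUSG00000040253) had 7.62, 7.22 and 5.32 CPM in EV libraries and 6.36, 4.57 and 4.99 CPM in vehicle libraries, against 7.98, 7.66 and 7.33 CPM in WT libraries. Vehicle libraries were all below WT libraries, and the EV libraries overlapped the vehicle libraries and the WT libraries. For vehicle against WT the log2 fold change of Gbp7 was -0.53 (SE 0.165) at an adjusted p of 0.0503, just outside the threshold, and DESeq2 put it inside at 0.0419. Of the exon bases of Gbp7, 11.3% also belong to another annotated gene, and strand was not used in counting. Gbp2 averaged 3.10 ± 0.606 CPM in EV libraries, 1.96 ± 0.103 CPM in vehicle libraries and 1.66 ± 0.870 CPM in WT libraries (SD, n = 3 each). WT replicate 6 held 0.669 CPM of Gbp2, against 2.03 and 2.29 CPM in the other WT libraries. Gbp3 overlapped in all comparisons, with log2 fold changes of -0.35, 0.27 and -0.08.

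Immunity-related GTPases act at the same vacuoles, and Irgm1 regulates the others. Irgm1 had 1.23, 2.79 and 1.99 CPM in EV libraries and 2.01, 1.97 and 2.07 CPM in vehicle libraries, against 1.97, 2.26 and 1.06 CPM in WT libraries. The vehicle libraries of Irgm1 were close together, and both other groups spread around them. Its log2 fold changes were 0.19, -0.01 and 0.18 in the 3 comparisons, with adjusted p of 0.715, 0.988 and 0.819. Igtp, Irgm2 and Iigp1 overlapped in every comparison, with log2 fold changes of 0.26, 0.35 and 0.17 for EVs against vehicle. Igtp and Irgm2 share exon bases with each other (8.0% of those of Igtp and 4.4% of those of Irgm2). Reads that overlapped exons of both genes were listed apart as ambiguous and counted for neither.

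The remaining members have varied functions. Ifi27 had 14.7, 11.1 and 16.2 CPM in EV libraries and 9.42, 10.4 and 12.4 CPM in vehicle libraries, against 11.8, 10.2 and 10.5 CPM in WT libraries. The groups of Ifi27 overlapped through EV replicate 3, and the log2 fold change for EVs against vehicle was 0.38 (SE 0.151, adjusted p = 0.161). Ifi44 had 0.469, 0.520 and 0.652 CPM in EV libraries and 0.358, 0.452 and 0.330 CPM in vehicle libraries, against 0.913, 0.553 and 0.952 CPM in WT libraries. Vehicle libraries were the lowest for Ifi44, with no overlap with EV or WT libraries. Its log2 fold change for vehicle against WT, -1.08 (SE 0.401, adjusted p = 0.0818), had the largest size of the list in that comparison and rested on 13 to 37 reads. Ifi35, a partner of Nmi in innate signalling, averaged 1.08 ± 0.313 CPM in EV libraries, 0.656 ± 0.0582 CPM in vehicle libraries and 0.654 ± 0.109 CPM in WT libraries, and 16.8% of its exon bases are shared with a gene on the opposite strand. Rtp4, a chaperone of receptors, had a log2 fold change of 0.44 for vehicle against WT, without overlap, at an adjusted p of 0.421, and shares 13.9% of its exon bases with another gene. Parp14, Xaf1 and Samd9l, which act in ADP-ribosylation, apoptosis and translation control, had log2 fold changes between -0.38 and 0.38 in the 3 comparisons.

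**Figure D3:**
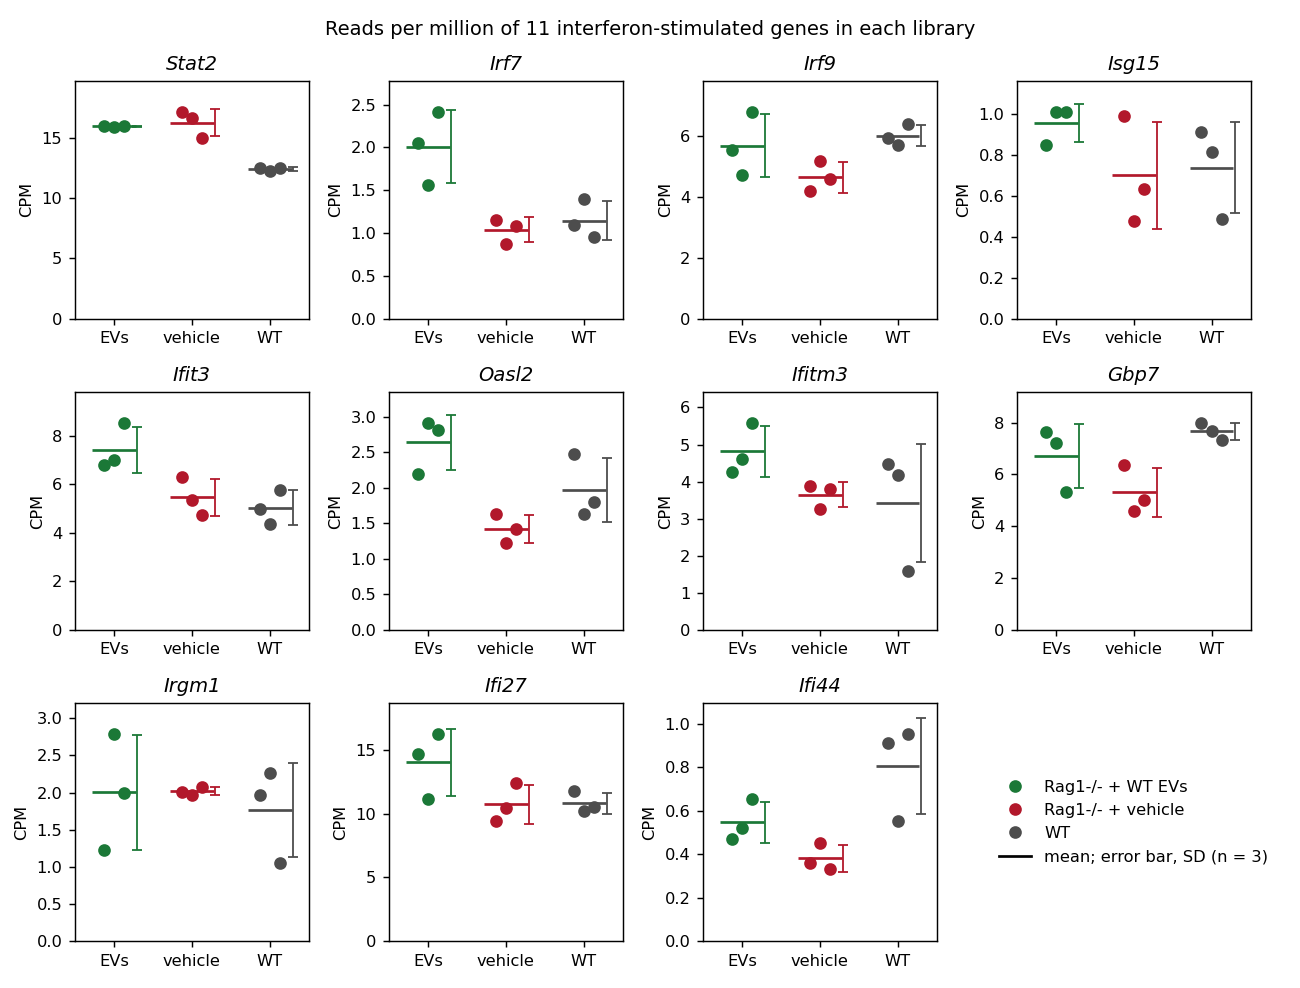
CPM of 11 interferon-stimulated genes in each library (points, n = 3 per group), with the mean (line) and SD (error bar), for Rag1-/- + WT EVs, Rag1-/- + vehicle and WT from left to right. Stat2 lies at 15 to 17.15 CPM in the 6 Rag1-/- libraries and at 12.26 to 12.51 CPM in WT, and Irf7 and Oasl2 are higher in all EV libraries than in all vehicle libraries.

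The pattern over libraries was not even within groups. EV replicate 5 had the highest CPM of all 9 libraries for 16 of 33 tested members, EV replicate 3 for 7 and EV replicate 2 for 0. The median log2 deviation of members from their own mean over 9 libraries was 0.03, 0.21 and 0.31 in EV replicates 2, 3 and 5 and 0.00, -0.15 and -0.14 in vehicle replicates 1, 2 and 3, against 0.02, -0.01 and -0.15 in WT replicates 1, 3 and 6. EV replicate 2 was therefore nearer to vehicle replicate 1 and WT replicate 1 than to the other EV libraries. Without EV replicate 5 the median log2 fold change of the list for EVs against vehicle was 0.20, and without EV replicate 2 that for EVs against WT was 0.35. WT replicate 6 was the lowest library for 9 members, Gbp2 and Ifitm3 among them, and the highest for 5.

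**Figure D4:**
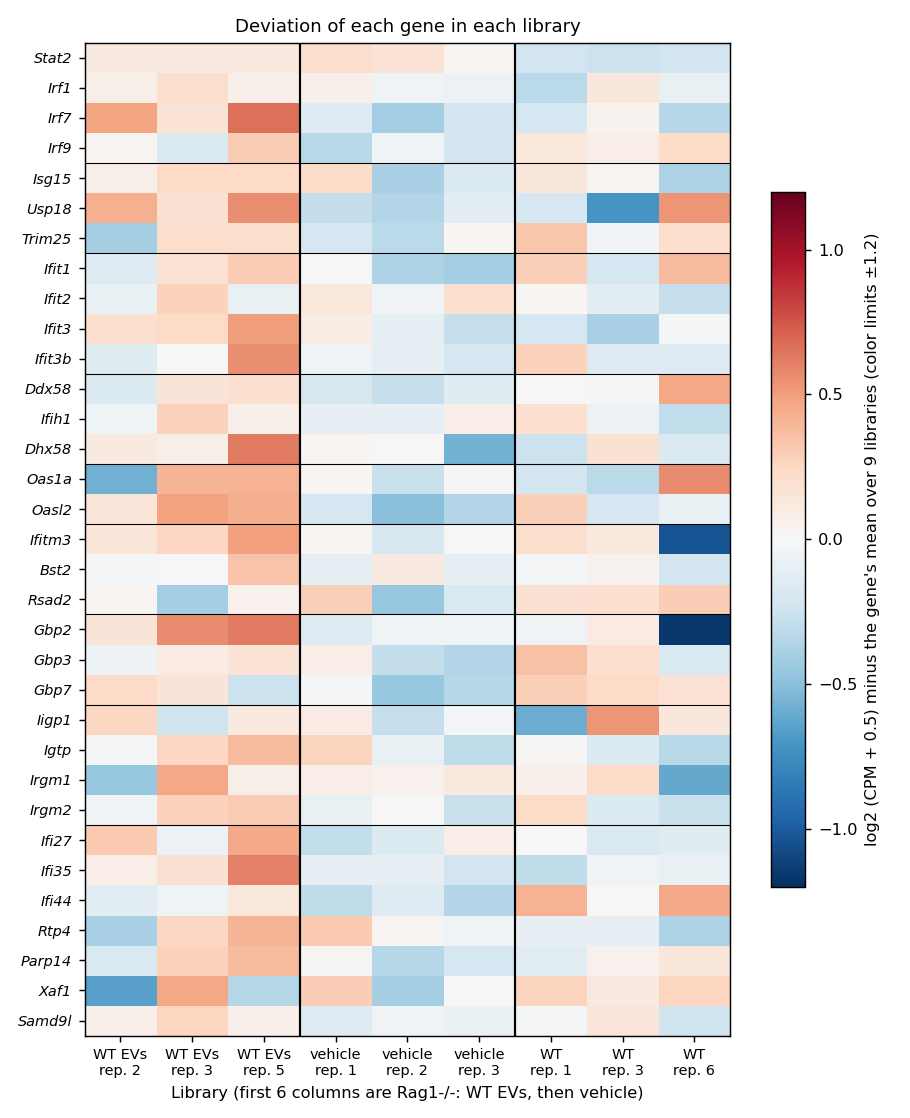
Deviation of each of 33 tested interferon-stimulated genes from its mean over 9 libraries, as log2 (CPM + 0.5), with higher values in red and lower values in blue. EV replicate 5 is the highest library for 16 genes, and Gbp2 and Ifitm3 in WT replicate 6 (last column) are the darkest blue.

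The remainder of the pathway was counted from lists of ligands, receptors, kinases, factors, regulators, sensors and further interferon-stimulated genes. All 21 interferon ligand genes were too low to test, with at most 3 reads of any of them in a library. Of the receptors 5 of 6 were tested and 0 passed in any comparison by edgeR, DESeq2 or limma-voom, with 0 at an unadjusted p under 0.05. Ifnar1, a chain of the type I receptor, averaged 42.4 ± 1.47 CPM in EV libraries, 45.4 ± 0.655 CPM in vehicle libraries and 42.4 ± 3.36 CPM in WT libraries (SD, n = 3 each).

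Of 107 tested genes in these lists, edgeR called 4 higher and 4 lower in vehicle than in WT libraries (6.28% and 9.71% of all tested genes). Those lower were Stat5a (log2 fold change -1.15, adjusted p = 0.0386), a cytokine signal transducer, Irf8 (-0.75, 0.0330), a factor of microglia and other myeloid cells, Traf3 (-0.60, 0.0263), an adaptor of RNA sensing, and Trim56 (-0.53, 0.0495), a ubiquitin ligase. Those higher were Adar (0.57, 0.0263), which edits double-stranded RNA, Pml (0.53, 0.0253), the organizer of nuclear bodies, Ly6e (0.42, 0.0357), a membrane protein, and Pias1 (0.34, 0.0495), an inhibitor of interferon signalling. For vehicle against WT DESeq2 called 8 of the 107 higher and 6 lower, and limma-voom 3 and 3. Over all 17948 tested genes DESeq2 called 2138 and 2319, and limma-voom 815 and 793. For EVs against vehicle 0 of 107 passed by edgeR, with 13 higher and 4 lower at an unadjusted p under 0.05 (12.3% and 10.7% of all genes). DESeq2 called 2 of them higher and 3 lower, where it called 962 and 1207 of all 17948 tested genes, and limma-voom called 0. For EVs against WT 0 of 107 passed by edgeR, with 6 higher and 4 lower at an unadjusted p under 0.05 (8.34% and 8.07% of all genes). DESeq2 called 1 of them higher, where it called 265 of all 17948 tested genes higher, and limma-voom called 0. The list of further interferon-stimulated genes, 54 of 77 tested, had median log2 fold changes of -0.18 for vehicle against WT, 0.30 for EVs against vehicle and 0.07 for EVs against WT. The double-stranded RNA kinase Eif2ak2 averaged 7.81 ± 1.35 CPM in EV libraries, 5.64 ± 0.863 CPM in vehicle libraries and 7.93 ± 1.77 CPM in WT libraries, and it did not pass in any comparison.

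Markers of several cell types were also called in these comparisons, and others were not. Of 14 tested microglial markers, 3 were higher in EV than in vehicle libraries (2.17% of all tested genes), namely Siglech, C1qb and Tyrobp, and 14 of 14 had a fold above 1 (55.0% of all genes), with a median log2 fold change of 0.41. The summed level of the microglial markers was 431 to 472 CPM in EV libraries and 322 to 362 CPM in vehicle libraries, against 300 to 456 CPM in WT libraries. Siglech and Tyrobp were also lower in vehicle than in WT libraries, 2 of 14 (9.71% of all genes). Astrocyte markers summed to 10390 to 10700 CPM in EV libraries. They summed to 7423 to 8450 CPM in vehicle libraries and to 10990 to 12900 CPM in WT libraries. Of 10, 6 were lower in vehicle than in WT libraries (9.71% of all genes) and 3 were higher in EV than in vehicle libraries (2.17%). Markers of border and perivascular macrophages summed to 15.95 to 29.8 CPM in EV libraries and 11.1 to 15.03 CPM in vehicle libraries, against 8.21 to 14.2 CPM in WT libraries. Of these 8 macrophage markers 0 passed by edgeR in any comparison. At an unadjusted p under 0.05, 3 were higher for EVs against vehicle (12.3% of all genes) and 5 for EVs against WT (8.34%). DESeq2 called 2 and 1 of them higher, where it called 962 and 265 of all 17948 tested genes higher. Endothelial markers summed to 301 to 393 CPM in EV libraries. They summed to 282 to 312 CPM in vehicle libraries and to 216 to 431 CPM in WT libraries. Of 12, 0 were called in any comparison by edgeR or DESeq2. At an unadjusted p under 0.05, 1 was lower for vehicle against WT (20% of all genes) and 1 higher for EVs against vehicle (12.3%). Meningeal fibroblast markers summed to 719.7 to 1241 CPM in EV libraries and 450.2 to 587 CPM in vehicle libraries, against 233 to 455 CPM in WT libraries, with 2 of 9 higher in each comparison (6.28%, 2.17% and 0.039% of all genes for vehicle against WT, EVs against vehicle and EVs against WT).

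Markers of monocytes and neutrophils summed to 1.38 to 2.41 CPM in EV libraries and 0.505 to 1.63 CPM in vehicle libraries, against 1.78 to 26.9 CPM in WT libraries. Of 5 tested, 3 were lower in vehicle than in WT libraries (9.71% of all genes), namely S100a8, S100a9 and Lcn2, where DESeq2 called 1 and limma-voom 0. Among excitatory neuron markers, Tbr1 and Neurod6 were higher and Camk2a lower in vehicle than in WT libraries, and these were called in the other direction for EVs against vehicle. Of 8 inhibitory neuron markers, edgeR called Sst higher in vehicle than in WT libraries and Lhx6 lower in EV than in vehicle libraries. For vehicle against WT, 6 were higher at an unadjusted edgeR p under 0.05 (16% of all genes), with a median log2 fold change of 0.54. DESeq2 called 6 higher there, where it called 2138 of all 17948 tested genes higher, and limma-voom called 1. They summed to 478 to 627 CPM in EV libraries and 625 to 706 CPM in vehicle libraries, against 323 to 571 CPM in WT libraries. Rgs5, 1 of 8 pericyte and smooth muscle markers, was lower and Cldn11, 1 of 9 oligodendrocyte markers, higher in vehicle than in WT libraries. Over all tested genes, 6.28% were higher and 9.71% lower in vehicle than in WT libraries. In EV against vehicle libraries, 2.17% were higher and 1.24% lower. The part of these cell types, and of the share of reads outside exons, in the values of the interferon-stimulated genes was not tested. Of the T cell markers, Cd3d and Cd8b1 had 0 reads in every library and Cd3e 4 reads or fewer. Reads assigned to Trac (7 to 22), Cd4 (3 to 36), Lck (12 to 31), Trbc2 (271 to 523) and Ighm (498 to 1034) were present in all 9 libraries, those labelled Rag1-/- among them.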

How the data were processed

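PFC RNA of 9 mouse libraries (75 bp pairs) was aligned by the authors with STAR (2.7.5c), after bcl2fastq (2.18.0.12), to GRCm38 with GENCODE M24. The values are raw counts per gene, which the authors made with HTSeq (0.11.1 in the submitters' processing notes, 0.12.3 in the study's methods) over exons, at a minimum alignment quality of 10 and without using strand, and deposited as 1 table. Names, exon lengths and overlaps came from GENCODE M21, in which 98.04% of identifiers were found. Reads outside exons stayed out of library sizes.

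edgeR (4.0.16, in R 4.3.3) fitted all 9 libraries at once. Low genes were removed by filterByExpr at a minimum count of 10 and a minimum total of 15, libraries were scaled by TMM, and the quasi-likelihood F test was 2-sided. A gene was called at an adjusted p under 0.05, after Benjamini and Hochberg, over 17948 genes. SE is the log2 fold change divided by the square root of F, and 95% intervals use the t distribution. CPM divides by the TMM-scaled library size of tested genes. The fit was tested on simulated data. The members and gene lists were chosen with earlier results of these data known. Values in every library are given for members that were called, the 4 with the smallest p per comparison, and Stat2, Irf9, Irf7, Isg15, Ifitm3 and Irgm1. Other members were chosen for mention after their values were seen, so that every member is accounted for. Of pathway genes those called are named, and Ifnar1 and Eif2ak2 were added after their values were seen. Some genes of the lists are not reported here. Of 156 listed pathway genes 154 matched. Same-numbered libraries had correlations of 0.0795, -0.153, 0.087, 0.16 and 0.0172 and were not taken as pairs. Alternatives were DESeq2 (1.42.0), limma-voom (3.58.1), DESeq2's size factors, other filters, a replicate block, GC and length offsets, both together, a covariate (log2 of reads outside exons over gene reads), the 6 compared libraries alone, and each library left out. Figures used matplotlib (3.10.9).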

Additional observations from a re-analysis of the deposited data

How the results depend on the processing

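Members called for vehicle against WT numbered 1 in the fit reported. They numbered 2 with DESeq2 and with at least 1 CPM in 3 libraries (Stat2 and Gbp7 in both). They numbered 0 with the covariate and with the 6 compared libraries alone. Over all genes the 1 CPM filter called 1020 higher and 1542 lower, the covariate 24 and 115, and the 6 libraries 0 and 0. Members called ranged from 0 to 2 with 1 library left out. For EVs against vehicle the count was 0 in the fit reported. It was 2 with DESeq2 and with at least 1 CPM in 3 libraries (Irf7 and Oasl2 in both). It was 3 with the covariate (Irf7, Oasl2 and Gbp2) and 4 with the 6 compared libraries (these and Usp18). With 1 library left out it was 0 to 3, the 3 being without WT replicate 6. These settings also called more over all genes, with 660 higher and 489 lower under the 1 CPM filter and 1136 and 837 with the covariate. The 6 libraries called 1691 and 1598, and the fit without WT replicate 6 called 1618 and 1367. For EVs against WT the count of members was 0, with 1 by DESeq2 and 0 to 0 with 1 library left out. Median log2 fold changes of the list for vehicle against WT, -0.14 in the fit reported, were -0.0389 without a filter, 0.026 with GC and length offsets and -0.203 to 0.0357 with 1 library left out. For EVs against vehicle they were 0.195 to 0.382 with 1 library left out, and for EVs against WT 0.147 to 0.355.

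The replicate numbers, at most 2 shared in a comparison, were not shown to pair libraries. With a replicate block 0 members were called for vehicle against WT, with or without GC and length offsets. Over all genes these fits called 438 higher and 644 lower with the offsets and 223 and 489 without. With the offsets 1 member (Oasl2) was called for EVs against vehicle, where 562 of all genes were higher and 565 lower. Under the block the log2 fold change of Ifitm3 for vehicle against WT was -0.183 (-0.0876 with offsets), that of Gbp7 for EVs against WT was 0.0771 (0.088 with offsets), and that of Stat2 for EVs against vehicle was 0.002 with offsets.

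The other signs that turned among these members were of differences that were not called. For vehicle against WT, the log2 fold change of Ifi27 was 0.01 with DESeq2, 0.0101 with its size factors, 0.0616 without a filter, 0.105 with offsets, 0.0241 with the covariate and -0.101 to 0.0971 with 1 library left out. That of Isg15 was 0.0427 with offsets and -0.384 to 0.176 with 1 library left out. With the covariate Ifitm3 had -0.469 and Irgm1 -0.304, and with 1 library left out Ifitm3 had -0.246 to 0.365, Irgm1 -0.0715 to 0.461 and Irf7 -0.26 to 0.0715. Over all alternatives Gbp2, at 0.24 in the fit reported, ran over -0.421 to 0.593, and Usp18, at -0.43, over -0.811 to 0.976. For EVs against vehicle Irgm1 had 0.194 with the covariate and -0.348 to 0.224 with 1 library left out. For EVs against WT, Irf9 had 0.0016 with the covariate and -0.224 to 0.0508 with 1 library left out, and Irgm1 had -0.11 and -0.118 to 0.453. Calls over all genes varied more widely: for vehicle against WT 1128 higher and 1743 lower in the fit reported, against 0 to 3277 and 0 to 3325 in alternatives, for EVs against vehicle 390 and 223, against 0 to 1691 and 0 to 1598, and for EVs against WT 7 and 1, against 0 to 891 and 0 to 646. The cause was not tested. Members with few reads have wide intervals, and 3 libraries per group limit each comparison.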
